A study of Mus musculus with 2 samples.

Results

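The cells described here are C1q+ cells of mouse dorsal skin with a high MHC class II content, of the kind usually called MHC class II high dermal macrophages. They were chosen by their own UMIs (distinct transcript molecules). A cell was taken when C1qa, C1qb and C1qc together had at least 3 UMIs, Ptprc or Csf1r had at least 1, Pdgfra and the Cd3e, Cd3d and Cd3g genes had 0, and H2-Aa, H2-Ab1, H2-Eb1 and Cd74 made up at least 0.5% of the UMIs of the cell. This gave 259 of 19578 kept cells, 219 in the Ctrl library and 40 in the AD library. The levels of these selecting genes are therefore given as a description only. C1q+ cells that met every condition except the last, with under 0.5% MHC class II, are called MHC-low cells. They are set beside the MHC-high cells for many of the genes and lists below. There were 127 MHC-low cells in Ctrl and 99 in AD.

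Dermal macrophages are phagocytes that take up debris and pathogens through scavenger receptors and lectins, and C1q, the first component of the classical complement pathway, is one of their usual marks. MHC class II molecules carry peptides from endocytosed proteins to the cell surface for CD4+ T cells. Their invariant chain, Cd74, fills the peptide groove until H2-DM exchanges it for a peptide, and transcription of the whole group depends on the transactivator Ciita. Dendritic cells and the Langerhans cells of the epidermis carry the same molecules, and a threshold on MHC class II alone does not tell these lineages apart.

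Both libraries came from dorsal skin of female C57BL/6J mice of 7 weeks, depilated on the back before treatment. Ctrl mice received ethanol alone and AD mice received MC903 (calcipotriol, a vitamin D analogue that gives AD-like dermatitis) at 4.5 nmol per application, each daily for 10 days on an area of 2 cm by 2 cm, with collection on day 10. There was 1 library per condition, and the number of mice behind each was not given in the sources used here. No test between conditions was therefore possible, and every interval below is a 95% interval for counting error only. In all, 12598 barcodes with 125184653 UMIs came from Ctrl and 8778 barcodes with 76106062 UMIs from AD. After barcodes outside 200 to 6000 genes or above 10% mitochondrial UMIs were dropped, 11399 Ctrl and 8179 AD cells were left. The libraries had 35 barcode sequences in common, 2 of them among the MHC-high cells.

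The label of dermal macrophages held for the Ctrl cells and only in part for the AD cells. Mrc1, the mannose receptor of tissue macrophages, had a UMI in 209 of 219 MHC-high cells of Ctrl and in 27 of 40 of AD, against 5.65% and 3.00% of all other kept cells. After thinning each cell to 1000 UMIs the shares were 77.8% and 40.0%. Levels below are in CPM, the UMIs of a gene scaled to all UMIs of the summed cells. Adgre1, which encodes the F4/80 antigen, was at 373 CPM in Ctrl against 120 CPM in AD. All 12 macrophage markers examined were detected in both libraries, with summed levels of 14424 and 10224 CPM, and Lyz2 was the most abundant of them. Of the 12, 4 were at least 2-fold lower in AD (Mrc1, Adgre1, Mertk and Aif1), none was higher, and 8 differed by less, with a median log2 ratio of AD over Ctrl (1 CPM added) of -0.67. Tyrobp, an adaptor of activating receptors, was at 865 and 1261 CPM, and Cd14, the co-receptor for endotoxin, at 758 and 997 CPM. At least 1 UMI of Cd207, Epcam, Flt3, Xcr1 or Ccr7, which mark Langerhans cells, classical dendritic cells or migrating dendritic cells, was found in 7 of 219 cells of Ctrl (3.20%, interval 1.29 to 6.47%) and in 20 of 40 cells of AD (50%, 33.8 to 66.2%). The MHC-high cells of AD were deeper, with a median of 11543 UMIs and 3058 genes per cell against 4163 UMIs and 1745 genes in Ctrl, which raises the chance of finding such a UMI. Over all kept cells the order was the reverse, with a median of 7813 UMIs in Ctrl and 6330 in AD.

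Cd207, the lectin langerin of Langerhans cells, had UMIs in 3 MHC-high cells of Ctrl and 11 of AD, and Epcam, an adhesion molecule of epidermal cells that Langerhans cells share, in 2 and 12. Ccr7, the receptor that guides dendritic cells to lymph nodes, was found in 4 and 7 cells, Flt3 in 0 and 4, and Xcr1 in none. After thinning, Cd207 was present in 0.926% of cells for Ctrl and 10.0% for AD. The MHC-low cells served as a background at similar or lower depth (median 3998 UMIs for Ctrl, 5757 for AD), with Cd207 in 0 of 127 and 2 of 99 cells, Ccr7 in none, and Epcam in 7 and 1. Summed Langerhans cell markers reached 415 CPM in Ctrl, led by Mfge8 at 202 CPM, and 1049 CPM in AD, led by Cd207 at 426 CPM. The dendritic cell markers were at 843 CPM in Ctrl against 529 CPM in AD, with Xcr1 and Clec9a at 0 in both libraries. That sum was led in Ctrl by Mgl2, a lectin that macrophages share, at 626 and 46.2 CPM, while Ccr7 was at 8.09 and 269 CPM, the integrin Itgax at 29.3 and 105 CPM and Cd24a at 25.3 and 83.9 CPM. Batf3, a transcription factor of dendritic cells, was at 62.7 and 6.29 CPM and the lectin Cd209a at 81.9 and 2.10 CPM, so that of 6 dendritic cell markers at 50 CPM or more in Ctrl or AD 3 were at least 2-fold higher and 3 lower (median log2 ratio -0.72). Of the 20 AD cells with a Cd207, Epcam, Flt3, Xcr1 or Ccr7 UMI, 9 had a Mrc1 UMI, against 18 of the 20 without. Their C1q UMIs, scaled to depth, were not lower. Because a macrophage name is uncertain for these 20 AD cells, the cells are called C1q+ MHC-high cells from here on. Many values are also given without the cells that had any of these UMIs (212 cells left in Ctrl, 20 in AD). These are called the unmarked cells. Among them 3 of the 12 macrophage markers were lower and none higher (median -0.26).

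**Figure D1:**
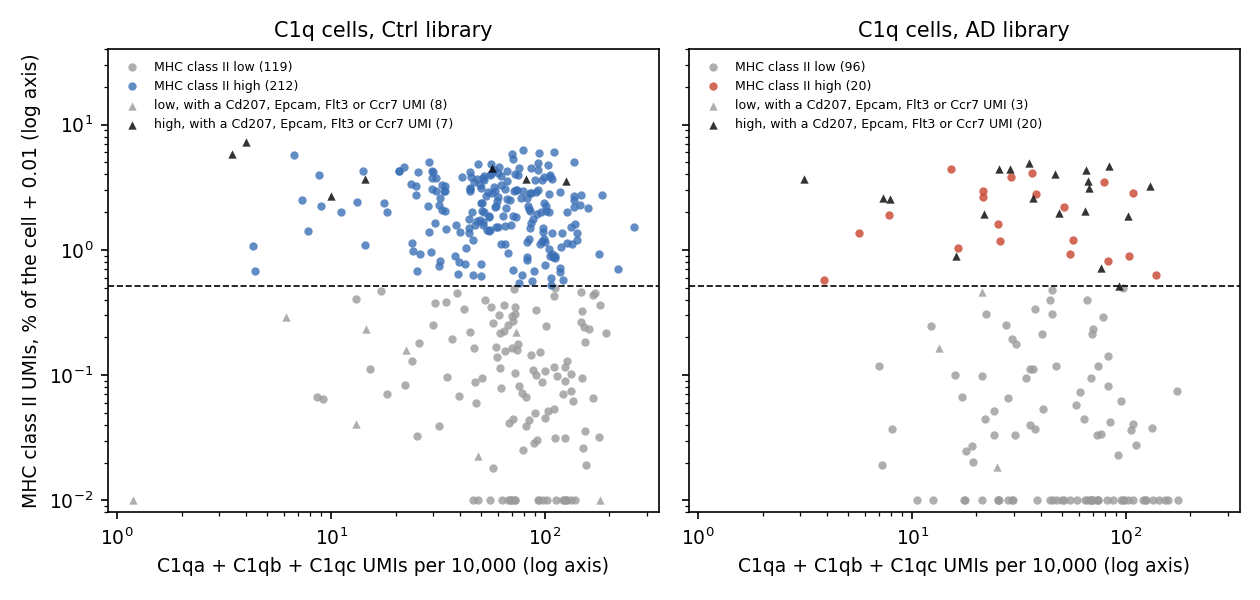
Each point is 1 C1q+ cell of the Ctrl (left) or AD (right) library, placed by its C1q UMIs scaled to depth (x, log axis) and its MHC class II share in percent with 0.01 added (y, log axis); the dashed line is the 0.5% limit and triangles carry a Cd207, Epcam, Flt3 or Ccr7 UMI. In Ctrl 7 of 219 cells above the line are triangles, and in AD 20 of 40.

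C1q+ MHC-high cells were scarcer in AD skin. They made up 1.92% of kept cells in Ctrl (219 of 11399, interval 1.68 to 2.19%) and 0.489% in AD (40 of 8179, 0.350 to 0.665%), a 3.93-fold lower share with a log2 ratio of -1.97 (-2.50 to -1.48). Among all C1q+ cells, 63.3% (58.0 to 68.4%) were MHC-high in Ctrl and 28.8% (21.4 to 37.1%) in AD. The shares were given by 1 dissociated suspension per condition, so a change in the number of macrophages cannot be told apart from a change in the other cells or in recovery. With the rule applied to cells thinned to 1000 UMIs, 149 cells of Ctrl and 17 of AD remained, with a log2 ratio of the share of -2.61. Without the cells with dendritic or Langerhans cell UMIs the ratio was -2.93.

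The MHC class II content of the cells, on which they were selected, had a median of 2.22% of UMIs in Ctrl and 2.57% in AD. H2-Aa was at 5160 CPM in Ctrl against 6827 CPM in AD, H2-Ab1 at 4132 and 5210 CPM, H2-Eb1 at 4042 and 4578 CPM, and Cd74 at 11003 and 10467 CPM. C1qa was at 2736 and 1834 CPM, and Csf1r, the receptor for the macrophage growth factor CSF1, at 824 and 415 CPM. Few cells lay near the limit: 5 of Ctrl and 2 of AD had 0.5 to 0.6%, and 8 and 3 MHC-low cells had 0.4 to 0.5%. The nearest values inside the limit were 0.518% in Ctrl and 0.501% in AD, and the nearest outside 0.482% and 0.483%. Of the MHC-high cells, 8 in Ctrl and 2 in AD had exactly 3 C1q UMIs, and 15 and 1 further cells met all other conditions with 2.

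Across genes, the summed profile of the MHC-high cells differed widely between the libraries. The 989106 UMIs of Ctrl and 476621 UMIs of AD allowed 3542 genes to be compared, those reaching 50 CPM in Ctrl or in AD, so that a gene low in one library passed only through the other. Of these, 351 genes (9.91%) were at least 2-fold higher in AD, that is with a log2 ratio of AD over Ctrl (1 CPM added) of at least 1, and 560 genes (15.8%) were at least 2-fold lower. The median log2 ratio over all compared genes was -0.10. With the total taken without ribosomal, mitochondrial and selecting genes, 547 of 4288 compared genes were higher and 529 lower, with a median of 0.06. Without the cells with dendritic or Langerhans cell UMIs, 251 of the 351 and 417 of the 560 genes still passed the same limit in the same direction. In the MHC-low cells, 195 of the 351 and 242 of the 560 genes passed it in the same direction, and 12 and 9 passed it in the opposite direction. Over the same 3542 genes, 10.2% were higher and 16.5% lower among the unmarked cells (median -0.12), and 9.2% higher and 10.6% lower in the MHC-low cells (median -0.05). The median in all other kept cells was -0.00. The counts of each gene list below stand beside these shares of their own cell class.

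**Figure D2:**
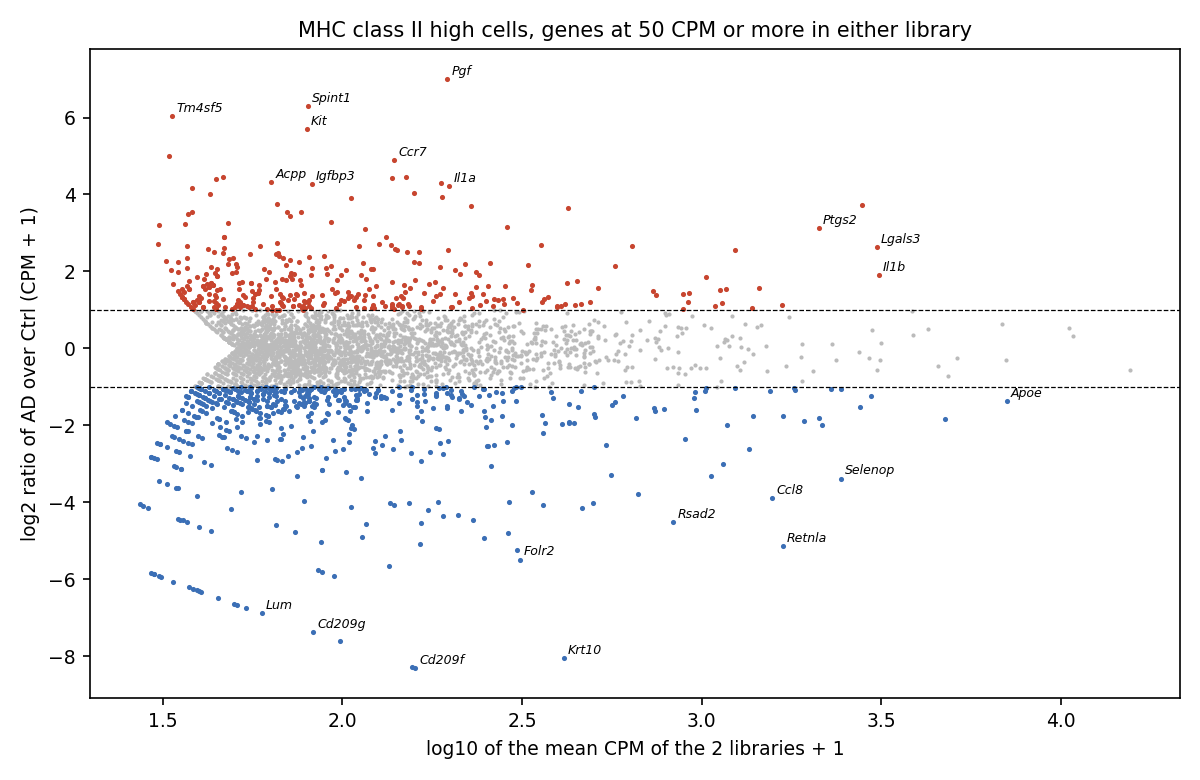
Each point is 1 of the 3542 genes compared in MHC-high cells, with the log10 of the mean CPM of the 2 libraries on the x axis and the log2 ratio of AD over Ctrl on the y axis; the dashed lines mark a 2-fold difference. Red points are the 351 genes higher in AD and blue points the 560 lower, with Pgf, Ptgs2 and Lgals3 among the former and Retnla, Folr2 and Cd209f among the latter.

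The genes of resident dermal macrophages were almost uniformly lower in AD. Of 17 genes examined, 16 were at least 2-fold lower in AD, 1 was higher, and the median log2 ratio was -3.80, against -0.10 over all genes. Without the cells with dendritic or Langerhans cell UMIs, all 17 were lower and the median was -3.79. In the MHC-low cells 12 of 17 were lower, with a median of -2.02, and in all other kept cells the median was -0.34.

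Lyve1, a hyaluronan receptor of perivascular macrophages, was at 167 CPM in Ctrl and 2.10 CPM (a single UMI) in AD, a log2 ratio of -5.76 with an interval from -11.63 to -3.81. Folr2, the folate receptor beta, was at 609 CPM in Ctrl against 12.6 CPM in AD, a log2 ratio of -5.49 (-7.05 to -4.46). Cd209f, a lectin of the DC-SIGN family, was at 317 CPM in Ctrl and had no UMI in AD, at least 50.4-fold lower with 3 UMIs as the floor. These genes were close to absent from the AD cells while the MHC-low cells of AD still had 221 CPM of Lyve1, 124 CPM of Folr2 and 19.6 CPM of Cd209f. Related lectins behaved alike, with Cd209g at 164 and 0 CPM (at least 26.02-fold lower) and Cd209d at 168 and 4.20 CPM. The Cd209 genes are close paralogs, and how reads shared between them were counted is not given in the sources used here, so the split between them is uncertain.

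Abundant genes of the group went in the same direction. Selenop, a secreted selenoprotein, was at 4447 CPM in Ctrl against 426 CPM in AD. Pf4, a platelet chemokine that macrophages also make, was at 2324 and 378 CPM, F13a1, the A chain of coagulation factor XIII, at 1923 and 191 CPM, and Maf, a transcription factor of resident macrophages, at 1236 and 88.1 CPM. The corresponding log2 ratios lay between -3.80 and -2.62. Igf1, insulin-like growth factor 1, was at 594 CPM in Ctrl against 14.7 CPM in AD, and Gas6, a ligand that bridges dying cells to their receptors, at 440 and 18.9 CPM. Cd163, the haemoglobin scavenger receptor, was at 593 and 128 CPM, but 70.5% of its AD UMIs came from 1 cell. Mrc1 was the least reduced of the 16 genes, at 2140 and 632 CPM (log2 ratio -1.76), and in MHC-low cells it was at 2293 and 2239 CPM. Timd4, a phosphatidylserine receptor, was the exception at 18.2 CPM in Ctrl against 81.8 CPM in AD, with every AD UMI in the cells that had dendritic or Langerhans cell UMIs.

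**Figure D3:**
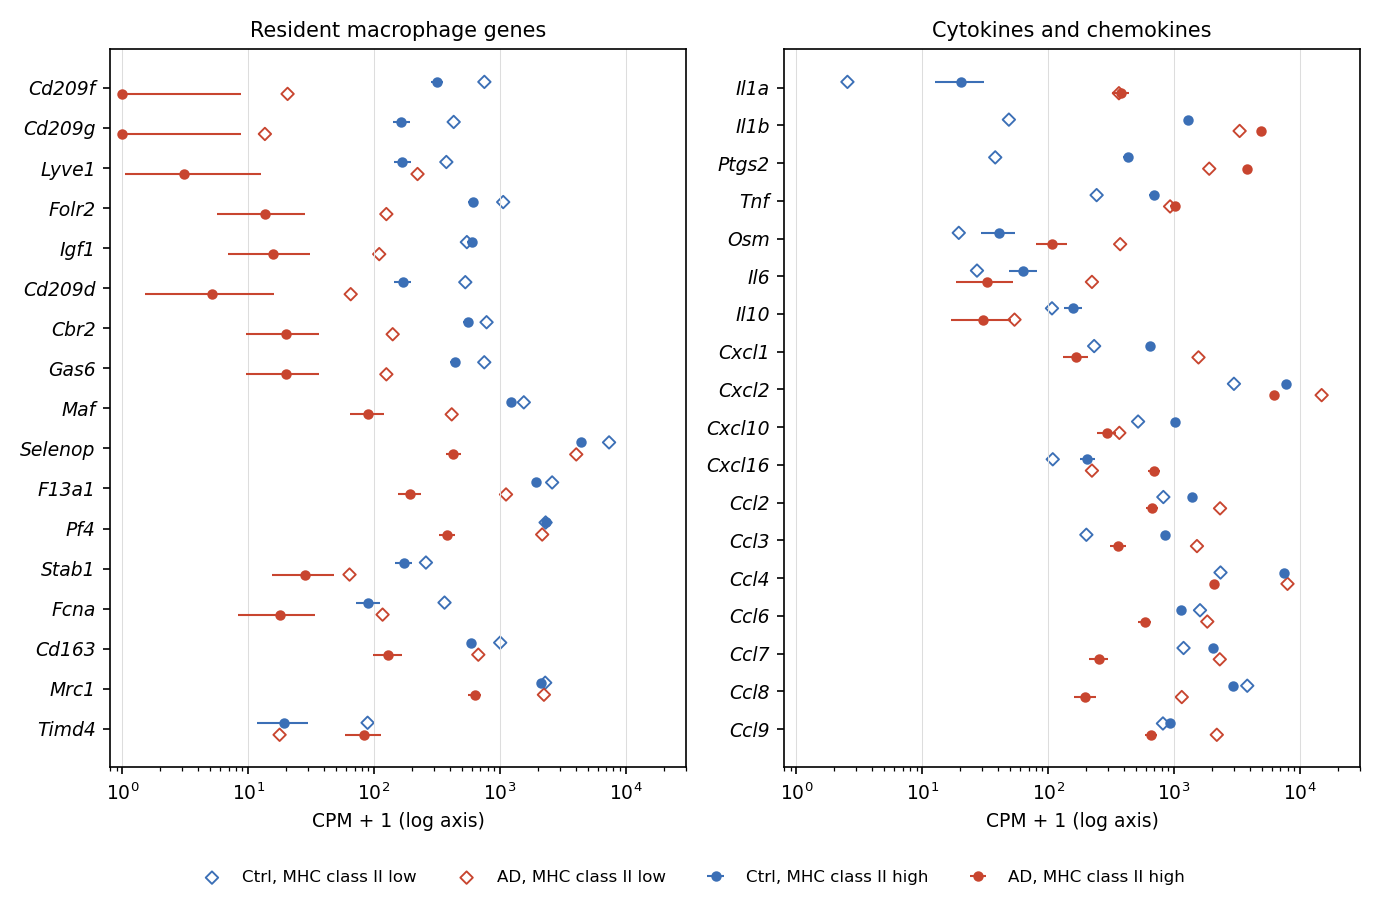
Levels (CPM + 1, log axis) of resident macrophage genes (left) and of cytokines and chemokines (right) in the Ctrl (blue) and AD (red) libraries; filled points are MHC-high cells with 95% Poisson intervals for counting error, and open diamonds are MHC-low cells. Red filled points lie left of the blue ones for all resident genes except Timd4, and several chemokines are highest in the AD MHC-low cells.

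Genes of alternative activation, the state induced by IL4 and IL13, went in both directions. Of 21 genes examined 15 reached 50 CPM in either library, of which 5 were at least 2-fold higher and 8 at least 2-fold lower in AD, with a median log2 ratio of -1.76, and among unmarked cells again 5 and 8 (-1.01). The MHC-low cells had 6 higher and 2 lower (-0.03). Retnla, a secreted resistin-like protein, was the largest contributor, at 3268 CPM in Ctrl against 92.3 CPM in AD (log2 ratio -5.13, interval -5.61 to -4.72). It was also low in the MHC-low cells of AD, at 5524 CPM in Ctrl against 19.6 CPM in AD, and 72.7% of the AD UMIs of MHC-high cells came from 1 cell. The lectin Clec10a was at 547 and 33.6 CPM, its relative Mgl2 at 626 and 46.2 CPM, the fatty acid translocase Cd36 at 288 and 16.8 CPM, and the eotaxin Ccl24 at 157 and 16.8 CPM.

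Higher in AD were Tgm2, a transglutaminase, at 16.2 CPM in Ctrl against 77.6 CPM in AD, Il1rn, the IL1 receptor antagonist, at 57.6 and 149 CPM, and Fn1, fibronectin, at 161 and 510 CPM. For Fn1 the log2 ratio of 1.66 became -0.48 when the rule was applied to thinned cells. Ccl17, a ligand of CCR4, was at 23.3 and 206 CPM with 95.9% of the AD UMIs in 1 cell. Il4ra, the receptor chain shared by IL4 and IL13, was at 112 CPM in Ctrl against 212 CPM in AD (log2 ratio 0.91, 0.51 to 1.32), just short of 2-fold. Socs1 and Cish, feedback inhibitors of cytokine receptors, stayed under 50 CPM, at 3.03 and 37.8 CPM and at 28.3 and 44.1 CPM.

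To show the sequence of the gene of this group with the largest difference in CPM, the 150 bases before the start of Retnla are given from RefSeq (GRCm38.p6, chr16:48842459-48842608, plus strand). Capitals mark TTC and GAA with any 4 bases between them, the spacing preferred by STAT6, which reads the same on both strands.
Retnla: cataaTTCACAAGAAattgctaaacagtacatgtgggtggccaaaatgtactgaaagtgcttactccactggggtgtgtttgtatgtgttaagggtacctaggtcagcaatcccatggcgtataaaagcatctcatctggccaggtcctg
The match begins 145 bases before the start. In windows from 250 bases before to 50 after the start, 6.95% of 32851 RefSeq promoters hold this motif, and so do those of Retnla, Ccl17, Pdcd1lg2, Il1rn and Cd36, 5 of the 15 alternative activation genes with an entry. The motif with 3 bases between TTC and GAA, the spacing of other STATs, is in 8.30% of all promoters and in 4 of these 15 genes. A gene was counted when any of its entries had the motif, while the shares are over single promoters. Il1rn also has an entry without the STAT6 spacing. A match is a description of the sequence and not a measured site.

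CC chemokine ligands were lower more often than higher in the MHC-high cells of AD, while in the MHC-low cells more were higher. Of 11 CC ligands at 50 CPM or more, 6 were at least 2-fold lower and 2 higher in AD, with a median log2 ratio of -1.04. In MHC-low cells the median for the same genes was 1.42 (-0.05 over all compared genes), with 6 higher and 1 lower, and in all other kept cells it was 2.12 (-0.00 over all). Without the cells with dendritic or Langerhans cell UMIs 5 were lower and 2 higher, with a median of -0.66. Ccl12 and Ccl17, the 2 higher among all MHC-high cells, had negative ratios when the rule was applied to thinned cells. Ccl4, an attractant of monocytes and T cells, was at 7443 CPM in Ctrl against 2088 CPM in AD in MHC-high cells, and at 2345 and 7993 CPM in MHC-low cells. Ccl3, of the same family, was at 844 and 359 CPM in MHC-high cells and at 200 and 1524 CPM in MHC-low cells. In Ctrl both genes were thus more abundant in MHC-high cells, and in AD in MHC-low cells.

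The monocyte attractants Ccl2 and Ccl7 had the same order. Ccl2 was at 1384 CPM in Ctrl against 673 CPM in AD (log2 ratio -1.04, -1.22 to -0.86), with 43.6% of the AD UMIs in 1 cell, against 823 and 2325 CPM in MHC-low cells. Ccl7 was at 2040 and 252 CPM, against 1192 and 2314 CPM in MHC-low cells. Ccl8 was lower in both classes, at 2940 and 197 CPM in MHC-high cells and 3827 and 1154 CPM in MHC-low cells. Ccl12 was at 93.01 and 197 CPM in MHC-high cells, with 75.5% of the AD UMIs in 1 cell, and at 106 and 81.0 CPM in MHC-low cells. Ccl5, which attracts T cells, was at 381 and 476 CPM (log2 ratio 0.32, interval 0.08 to 0.56).

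Of 6 CXC ligands at 50 CPM or more 3 were lower and 2 higher, with a median of -1.05, and among unmarked cells 1 was lower and 1 higher (0.10). Cxcl9, an interferon-induced ligand of CXCR3, was at 63.7 and 10.5 CPM with UMIs in 3 cells of each library, but at 3.23 and 26.03 CPM among unmarked cells. Cxcl13, a B cell attractant, was at 8.09 and 86.0 CPM, with 73.2% of the AD UMIs in 1 cell, and at 8.61 and 15.6 CPM among unmarked cells. Cxcl2, a neutrophil attractant, stayed high in both libraries at 7747 CPM in Ctrl against 6290 CPM in AD, while in MHC-low cells it was at 2999 and 14934 CPM. Cxcl1, with the same receptor, was at 650 and 166 CPM, against 231 and 1567 CPM in MHC-low cells. Cxcl10, a ligand of CXCR3, was at 1019 and 292 CPM. Cxcl16, the ligand of CXCR6, was higher in AD, at 204 and 692 CPM (log2 ratio 1.76, 1.504 to 2.02), with 344 CPM in the 20 AD cells without dendritic or Langerhans cell UMIs and 928 CPM in the 20 with them. Of 6 chemokine receptors at 50 CPM or more 4 were higher in AD and none lower. They were Ccr7, Cxcr4 at 121 and 332 CPM, the decoy receptor Ccrl2 at 296 and 682 CPM and Ccr1 at 62.7 and 166 CPM. Among unmarked cells, which have no Ccr7 UMI by definition, 3 were higher and none lower.

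Inflammatory mediators were higher in AD more often than lower. Of 13 genes at 50 CPM or more in the list of cytokines and NF-kappaB feedback genes, 6 were at least 2-fold higher and 1 lower, with a median log2 ratio of 0.98, and among unmarked cells 5 and 1 (0.52). The MHC-low cells had 9 higher and none lower (2.32), and the median in all other kept cells was 1.07. Ptgs2, cyclooxygenase 2 of prostaglandin synthesis, was at 431 CPM in Ctrl against 3798 CPM in AD (log2 ratio 3.14, 2.99 to 3.30). After thinning, a Ptgs2 UMI was found in 9.26% of cells for Ctrl and 67.5% for AD. It was similar in the AD cells without (3264 CPM) and with (4158 CPM) dendritic or Langerhans cell UMIs. Il1b was at 1302 and 4918 CPM, and Il1a at 19.2 and 376 CPM with 63.1% of the AD UMIs in 1 cell. Among unmarked AD cells Il1b was at 3269 CPM and Il1a at 125 CPM.

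Nlrp3, the sensor of the inflammasome, was at 166 CPM in Ctrl against 357 CPM in AD, and 167 CPM in the AD cells without dendritic or Langerhans cell UMIs. Osm, oncostatin M, was at 39.4 and 107 CPM. Tnf was at 690 and 1022 CPM and Nfkbia, the NF-kappaB inhibitor, at 2586 and 5088 CPM, both under 2-fold. Il10, which restrains macrophages, was the 1 gene lower, at 157 and 29.4 CPM, with 78.6% of the AD UMIs in 1 cell. In MHC-low cells Il1b was at 47.8 CPM in Ctrl against 3328 CPM in AD, and Il1a at 1.54 and 365 CPM.

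**Figure D4:**
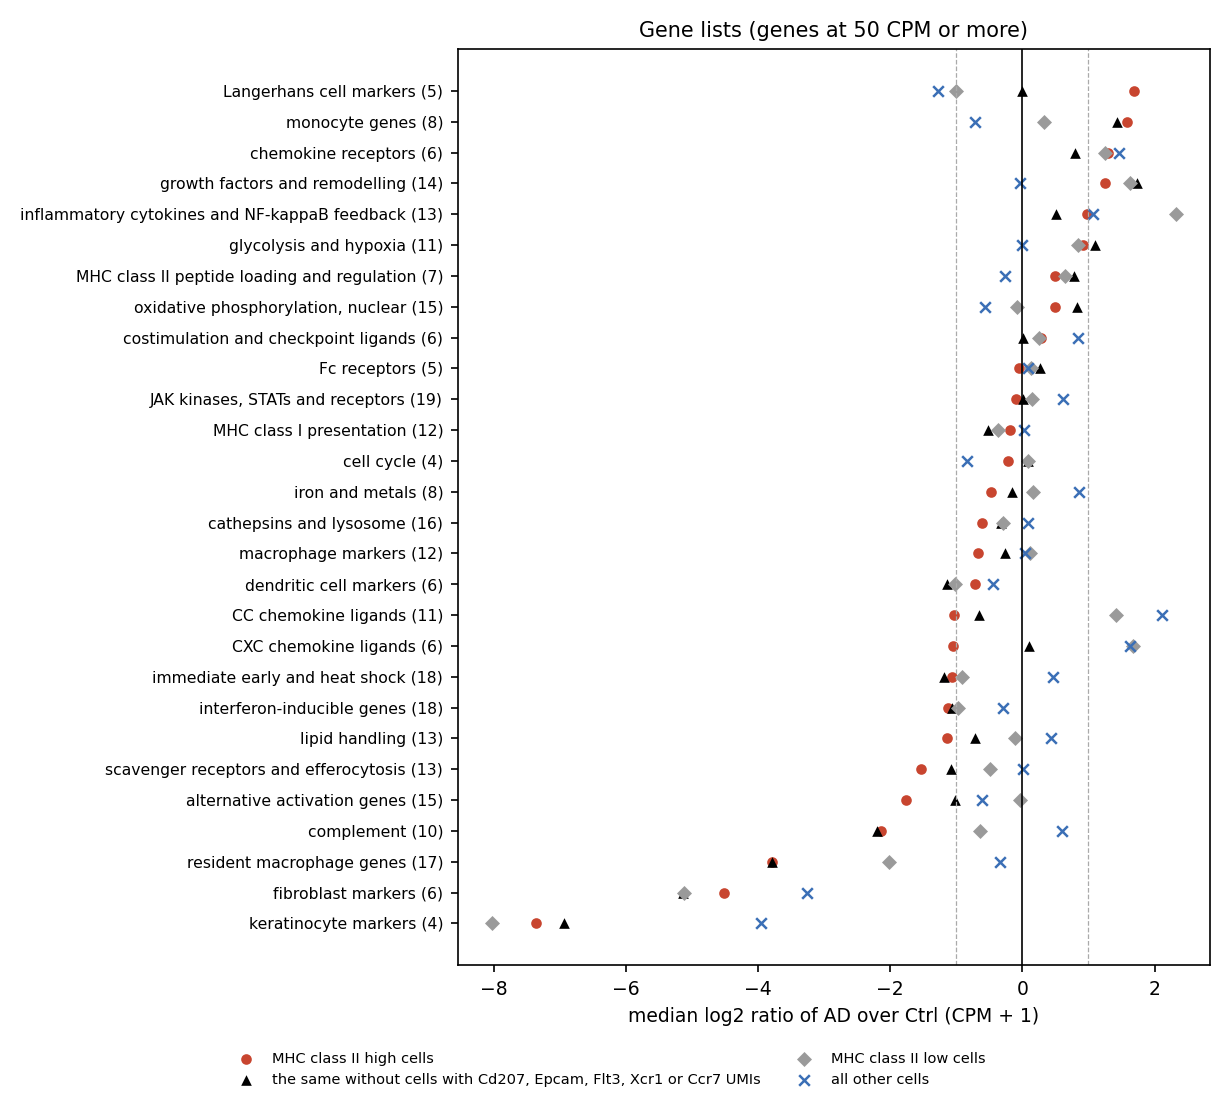
Median log2 ratio of AD over Ctrl (x axis, 1 CPM added) for each gene list, with the number of genes at 50 CPM or more in brackets, in MHC-high cells (red), in the same without cells with Cd207, Epcam, Flt3, Xcr1 or Ccr7 UMIs (black), in MHC-low cells (grey) and in all other kept cells (blue crosses). Resident macrophage genes lie at -3.80 and the CC ligands at -1.04 in MHC-high cells against 1.42 in MHC-low cells. The lists of Langerhans cell markers, dendritic cell markers and chemokine receptors hold Cd207, Epcam or Ccr7. Leaving out those cells removes every UMI of these genes, so the black points of these lists are partly set by that choice.

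Interferon-inducible genes were lower in AD for the most part. Of 18 genes at 50 CPM or more, 10 were at least 2-fold lower and 1 higher, with a median log2 ratio of -1.13 (-0.97 in MHC-low cells and -0.29 in all other kept cells), and among unmarked cells 9 and 1 (-1.07). Rsad2, an antiviral radical enzyme, was at 1594 CPM in Ctrl against 69.2 CPM in AD (log2 ratio -4.51, -5.07 to -4.03). Ifit1, which binds foreign RNA, was at 877 and 48.3 CPM, and Isg15, a ubiquitin-like modifier, at 305 and 128 CPM. Ifnb1, interferon beta itself, had 76 UMIs over 33 Ctrl cells and none in AD, at least 12.2-fold lower. Members of the group did not all follow, since Gbp5, a guanylate-binding protein, was at 74.8 and 166 CPM and Irf1 and Irf8, transcription factors, were at 226 and 287 CPM and at 168 and 197 CPM.

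Of 19 genes for JAK kinases, STATs and their receptors at 50 CPM or more, 14 differed by less than 2-fold, 4 were higher and 1 lower, with the same counts among unmarked cells. Jak2 was at 76.8 CPM in Ctrl against 229 CPM in AD, and Jak1 at 282 and 164 CPM. Socs3, the inhibitor of IL6-type receptors, was at 258 and 766 CPM (log2 ratio 1.57, 1.34 to 1.81). Csf2rb, the common chain of the receptors for GM-CSF, IL3 and IL5, was at 53.6 and 260 CPM, and its mouse relative Csf2rb2 at 17.2 and 81.8 CPM. Stat6, the STAT of IL4 and IL13, was at 69.8 and 65.0 CPM.

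Complement genes other than C1q were lower in AD, 6 of 10 at 50 CPM or more, with a median log2 ratio of -2.14, and again 6 among unmarked cells (-2.20). C4b, a component of the classical pathway, was at 222 CPM in Ctrl against 8.39 CPM in AD. C6 of the lytic pathway had 65.7 CPM in Ctrl and no UMI in AD. The receptor C5ar1 was at 293 and 69.2 CPM. C3 was the 1 gene of the list that was higher, at 115 and 352 CPM (log2 ratio 1.60, 1.26 to 1.97). Of 5 Fc receptor genes 1 passed 2-fold, Fcgrt, the neonatal Fc receptor, at 330 and 60.8 CPM. Among unmarked cells Fcgr1, the high-affinity IgG receptor, was also lower, at 109 and 41.6 CPM. The low-affinity receptors Fcgr2b and Fcgr3 were at 497 and 577 CPM and at 394 and 382 CPM.

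Uptake and lipid genes were mixed. Of 13 scavenger receptor and efferocytosis genes 8 were at least 2-fold lower and 4 higher (median log2 ratio -1.53), and of 13 lipid handling genes 7 were lower and 2 higher (-1.14). Among unmarked cells the counts were 8 lower and 3 higher (-1.08) and 5 lower and 2 higher (-0.72). Stab1, a receptor for modified lipoproteins, was at 171 CPM in Ctrl against 27.3 CPM in AD, and Colec12, a scavenger collectin, at 63.7 and 4.20 CPM. The class A scavenger receptor Msr1 was higher at 127 and 294 CPM, as were the fungal lectins Clec7a (Dectin-1) at 127 and 329 CPM and Clec4n (Dectin-2) at 80.9 and 208 CPM. Lgals3, galectin 3, was at 856 CPM in Ctrl against 5283 CPM in AD (log2 ratio 2.62, 2.51 to 2.74), and at 3659 CPM in the AD cells without dendritic or Langerhans cell UMIs. Apoe, the main lipid carrier of macrophages, was at 10205 and 3932 CPM in MHC-high cells, but at 10912 and 12851 CPM in MHC-low cells. Pltp, Lpl and Lipa, which move or hydrolyse lipids, were at 919 and 162 CPM, at 449 and 77.6 CPM and at 162 and 44.1 CPM.

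Of 16 lysosomal genes 5 were at least 2-fold lower and none higher (median log2 ratio -0.61), and among unmarked cells 5 were lower and 1 higher (-0.33). The protease Ctsb was at 4091 CPM in Ctrl against 1429 CPM in AD, Ctsc at 1178 and 392 CPM and Ctsd at 672 and 233 CPM. Ctss, which trims the invariant chain on its way to the loading compartment, was instead at 1269 and 2232 CPM (log2 ratio 0.81, 0.70 to 0.93). Hmox1, haem oxygenase 1, was at 1011 and 103 CPM, and the ferritin chains Fth1 and Ftl1 were at 8583 and 12412 CPM and at 5254 and 3814 CPM.

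Over all MHC-high cells, the counts for MHC class II loading were near those over all genes. Of 7 genes at 50 CPM or more 1 was higher and 6 differed by less than 2-fold, with a median log2 ratio of 0.50, and among unmarked cells 3 were higher and none lower, with a median of 0.78. H2-DMa and H2-DMb1, the chains of the peptide exchanger H2-DM, were at 365 and 497 CPM and at 233 and 329 CPM. Ciita was at 62.7 CPM in Ctrl against 60.8 CPM in AD (log2 ratio -0.04, -0.73 to 0.62). Ifi30, a lysosomal thiol reductase, was the gene past 2-fold, at 283 and 636 CPM. The counts for MHC class I presentation were likewise near those over all genes, with 2 of 12 lower and none higher. The lower ones were B2m at 3290 and 1580 CPM and Tapbp, which links MHC class I to the peptide transporter, at 272 and 128 CPM. Among unmarked cells 4 of the 12 were lower and none higher. Of 6 costimulatory and checkpoint genes 2 were higher and 1 lower (median 0.28), and among unmarked cells again 2 and 1 (0.02). Cd274, which encodes PD-L1, was at 87.0 and 336 CPM, Tnfsf9, the ligand of 4-1BB, at 198 and 642 CPM with 40.9% of the AD UMIs in 1 cell, Cd86 at 239 and 359 CPM, and Cd83 at 1397 and 646 CPM.

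The proximal promoters of 2 selecting genes and of a loading gene that the rule did not use are shown, to set the sequences of MHC class II genes beside that of a gene that serves the same pathway. They come from RefSeq (GRCm38.p6) and span the 150 bases before the start of H2-Aa (chr17:34287824-34287973, minus strand), H2-Eb1 (chr17:34305717-34305866, plus strand) and H2-DMb1 (chr17:34153041-34153190, plus strand). Capitals mark ATTGG or its reverse complement CCAAT, the core of the Y box.
H2-Aa: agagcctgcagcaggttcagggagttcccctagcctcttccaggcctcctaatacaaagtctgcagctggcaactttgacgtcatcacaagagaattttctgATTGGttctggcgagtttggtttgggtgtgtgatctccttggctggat
H2-Eb1: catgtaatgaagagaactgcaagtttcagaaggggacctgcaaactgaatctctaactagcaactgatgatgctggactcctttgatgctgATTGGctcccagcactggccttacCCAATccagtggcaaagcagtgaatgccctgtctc
H2-DMb1: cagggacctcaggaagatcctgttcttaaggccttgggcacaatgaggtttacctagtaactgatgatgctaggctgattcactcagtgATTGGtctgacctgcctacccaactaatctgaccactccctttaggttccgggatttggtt
The ATTGG match begins 48 bases before the start of H2-Aa, 59 before that of H2-Eb1 and 61 before that of H2-DMb1, and H2-Eb1 has a CCAAT at 35. Of the 11 loading and regulation genes with an entry, 9 hold the motif on either strand in the window from 250 bases before to 50 after the start, as do both of the 2 selecting MHC class II genes with an entry, beside 37.4% of all 32851 promoters. A gene was counted when any of its entries had the motif, while the share is over single promoters. H2-DMa and Lgmn each also have an entry without it. The match is common and describes the sequence only.

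Some monocyte, growth factor and glycolytic genes were higher in AD. Of 8 monocyte genes at 50 CPM or more 5 were at least 2-fold higher and 1 lower (median log2 ratio 1.58), and among unmarked cells 4 and 1 (1.44). In MHC-low cells 3 were higher and 3 lower (0.33). Of the 5, Ly6c1, an antigen of monocytes and endothelium, was at 20.2 and 65.0 CPM with 80.6% of the AD UMIs in 1 cell, and at 20.4 and 15.6 CPM among unmarked cells, and the ratio of Fn1 turned with the thinned rule as given above. S100a4, a calcium-binding protein of motile cells, was at 582 CPM in Ctrl against 1666 CPM in AD, and Thbs1, thrombospondin 1, at 17.2 and 298 CPM. Ccr2, the receptor for Ccl2 on incoming monocytes, was at 252 and 149 CPM (log2 ratio -0.75, -1.16 to -0.37), and at 333.1 CPM in the AD cells without dendritic or Langerhans cell UMIs.

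Of 14 growth factor and remodelling genes 7 were higher and 2 lower (median log2 ratio 1.25), and among unmarked cells 9 and 2 (1.74). Vegfa, an angiogenic factor, was at 16.2 CPM in Ctrl against 168 CPM in AD, with a level of 26.03 CPM in the unmarked AD cells and 264 CPM in those with dendritic or Langerhans cell UMIs. Pdgfa and Pdgfb, mitogens of fibroblasts and mural cells, were at 29.3 and 191 CPM and at 11.1 and 71.3 CPM, and Hbegf, an EGF receptor ligand, at 68.8 and 302 CPM. The membrane protease Mmp14 was at 33.4 and 151 CPM. Igf1 and Timp2, an inhibitor of metalloproteases, were the 2 lower genes, the latter at 676 and 174 CPM. Of 11 glycolysis and hypoxia genes 5 were higher and none lower (7 and none among unmarked cells), with Gapdh at 553 and 1274 CPM and the glucose transporter Slc2a1 at 19.2 and 65.0 CPM. The 15 nuclear genes of oxidative phosphorylation were mostly under 2-fold, with Cox4i1 and Ndufb9 higher (median 0.49), and among unmarked cells 3 were higher and none lower (0.83).

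Immediate early and heat shock genes, which respond quickly to stress and handling, were lower in AD for 12 of 18 genes and higher for 1, with a median log2 ratio of -1.07, and among unmarked cells for 11 and 1 (-1.19). Egr1 was at 1499 CPM in Ctrl against 292 CPM in AD, Hspa1a at 3032 and 820 CPM and Klf6 at 2591 and 770 CPM. Fos was at 2822 and 2662 CPM, and Ier3 was the higher gene at 497 and 1345 CPM. In MHC-low cells the median was -0.91, and in all other kept cells 0.46. Vdr, the receptor that binds MC903, was at 15.2 and 35.7 CPM in MHC-high cells, under the limit of 50 CPM, and Dhrs3, a retinal reductase, at 157 and 16.8 CPM. Cell cycle genes differed little, with Mki67 at 73.8 and 62.9 CPM and no member of 4 past 2-fold.

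Ranked over all compared genes, the highest ratios were those of Pgf, placental growth factor, at 2.02 CPM in Ctrl against 388 CPM in AD, and Spint1, an inhibitor of membrane serine proteases, at 1.01 and 157 CPM. Pgf had UMIs in 2 of 219 Ctrl and 18 of 40 AD cells, and its log2 ratio of 7.01 (5.71 to 10.64) was 4.21 without the cells with dendritic or Langerhans cell UMIs. Spint1 had UMIs in 1 and 21 cells and was at 98.9 CPM in the unmarked AD cells. Kit, the receptor of stem cell factor, was at 2.02 and 155 CPM, with a level of 243 CPM in the AD cells with dendritic or Langerhans cell UMIs. In the unmarked cells it was at 2.15 and 26.03 CPM. The mast cell genes Cpa3 and Tpsb2 had no UMI in the AD MHC-high cells. Havcr2, which encodes TIM-3, was at 11.1 and 262 CPM, Cd69 at 12.1 and 287 CPM, Ddit4, a stress-induced inhibitor of mTORC1, at 17.2 and 357 CPM, and Igfbp3 at 7.08 and 155 CPM. In the unmarked AD cells these were at 203 CPM for Havcr2, 193 CPM for Cd69, 458 CPM for Ddit4 and 83.3 CPM for Igfbp3. Acpp, Ltb4r1, AA467197 and Gm19765 also stood among the 15 highest, together with Ccr7 and Il1a. In the unmarked AD cells Acpp was at 156 CPM, Ltb4r1 at 141 CPM, Gm19765 at 78.1 CPM and AA467197 at 20.8 CPM. Tm4sf5 had no UMI in Ctrl and 31 in AD, 74.2% of them in 1 cell and none in unmarked cells.

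The lowest ratios were those of Cd209f, Krt1, Krt10, Krt77, Cd209g, Lum, Chp2, Dsp, Perp, Cp, Rgs5, Meg3, Ifnb1, Pla2g2d and Cd209b, which all had 0 or 1 UMI in AD. Pla2g2d, a phospholipase that limits inflammation, was at 74.8 CPM over 27 Ctrl cells and absent from AD (at least 11.9-fold lower), as was Cp, ceruloplasmin, at 88.0 CPM over 42 cells. Much of the keratin signal lay in 1 cell per gene, which held 92.2% of the Krt1 and 90.3% of the Krt10 UMIs of Ctrl. The top cell likewise held 85.9% of the Dsp and 84.6% of the Rgs5 UMIs. Without the top cell of each gene, 557 of the 560 lower and 303 of the 351 higher genes still passed the limit. One cell is a larger part of the 40 AD cells than of the 219 Ctrl cells, and the totals were kept. The ratios therefore shifted down, with a median of -0.25, so the count of lower genes that stayed says little. In the MHC-low cells all 4 keratinocyte markers compared were lower as well. The whole marker list there summed to 2495 CPM for Ctrl against 39.1 CPM for AD. Lum is a collagen-binding proteoglycan of fibroblasts.

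RNA of other skin cells was unequal between the libraries. Fibroblast markers summed to 1683 CPM in the Ctrl and 120 CPM in the AD MHC-high cells, with Dcn as the most abundant in both, and Lum, Dpt and Pdgfrb at 0 in AD. Col1a1 was at 317 and 8.39 CPM, with UMIs in 123 of 219 and 2 of 40 cells. In all other kept cells the same markers summed to 32613 and 8584 CPM. Keratinocyte markers were at 1439 CPM in Ctrl, led by Krt10, and 23.1 CPM in AD, led by Krt14. B cell markers were at 276 and 8.39 CPM, led in Ctrl by Ighm at 263 CPM, with Cd79a, Ms4a1 and Jchain at 0 in both libraries. T and NK cell markers summed to 37.4 and 23.1 CPM, neutrophil markers to 80.9 and 31.5 CPM and endothelial markers to 83.9 and 90.2 CPM. The part of this RNA in the other differences was not tested, except that with cells of more than 5 UMIs of Col1a1, Col1a2, Col3a1 and Dcn left out 356 genes were higher and 547 lower. Ribosomal protein genes made up 12.3% of the UMIs in Ctrl and 19.6% in AD, and mitochondrial genes 2.95% and 3.14%.

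Compared with the MHC-low cells of the same library, the MHC-high cells differed in both libraries by genes that partly overlapped. Of 2915 genes with at least 50 CPM in either class in both libraries, 90 were at least 2-fold higher (3.09%) and 42 lower (1.44%) in MHC-high cells in Ctrl, and 87 higher (2.98%) and 252 lower (8.64%) in AD. Of these, 29 were higher and 14 lower in both libraries, and 13 went in opposite directions. H2-DMa was at 365 CPM in MHC-high and 46.3 CPM in MHC-low cells of Ctrl, and at 497 and 58.7 CPM in AD. Ciita was at 62.7 and 6.17 CPM in Ctrl and at 60.8 CPM and no UMI in AD. Cytip, which tunes adhesion of activated leukocytes, was at 95.04 and 17.0 CPM in Ctrl and 615 and 122 CPM in AD, and Il1r2, the decoy receptor of IL1, at 56.6 and 7.71 CPM and at 514 and 16.8 CPM. Among unmarked MHC-high cells Cytip was at 66.7 and 307 CPM and Il1r2 at 14.0 and 93.7 CPM in Ctrl and AD. Lyz1 was at 245 and 1.54 CPM in Ctrl and 231 and 14.0 CPM in AD. Cd207, Mfge8, H2-M2 and Areg were also higher in both, each carried by few cells, such as Areg in 10 Ctrl and 3 AD cells.

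The 10 genes with the lowest ratio of MHC-high over MHC-low cells in both libraries were of several kinds. Fcna, ficolin A, was at 89.0 and 362 CPM in Ctrl and 16.8 and 116 CPM in AD, and C4b at 222 and 577 CPM and at 8.39 and 260 CPM. Pros1, protein S, was at 146 and 315 CPM in Ctrl and 8.39 and 116 CPM in AD, and Mt2, a metallothionein, at 165 and 438 CPM and at 183 and 732 CPM. Lyve1, Cd209d, Fcgrt, Mgst1, Slc29a1 and H1f5 made up the rest. Of the 10, Fcna, Lyve1 and Cd209d are on the list of resident genes. The median log2 ratio of MHC-high over MHC-low cells for the 17 resident genes was -0.76 in Ctrl and -2.72 in AD, and for the 11 CC ligands 0.75 and -1.79. With 1 library per condition the difference between these medians was not tested.

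Among the MHC-high cells of Ctrl, the resident genes were lower the higher the MHC class II share. They summed to 21872 CPM in the 35 cells with 0.5 to 1% MHC class II, 18240 CPM in the 61 cells with 1 to 2%, 15227 CPM in the 92 cells with 2 to 4% and 7036 CPM in the 31 cells above 4%. In AD the sums were 5485 CPM in 8 cells, 1100 CPM in 9, 1886 CPM in 15 and 749 CPM in 8. Every AD sum was under the lowest Ctrl sum. These ranges were cut from the same UMIs that chose the cells, and a higher MHC class II share leaves less of the total to other genes, so the order is a description. The loading genes, which the rule did not use, summed to 2959, 2856, 3475 and 4334 CPM in Ctrl and to 5391, 3352, 4646 and 4594 CPM in AD over the same ranges.

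**Figure D5:**
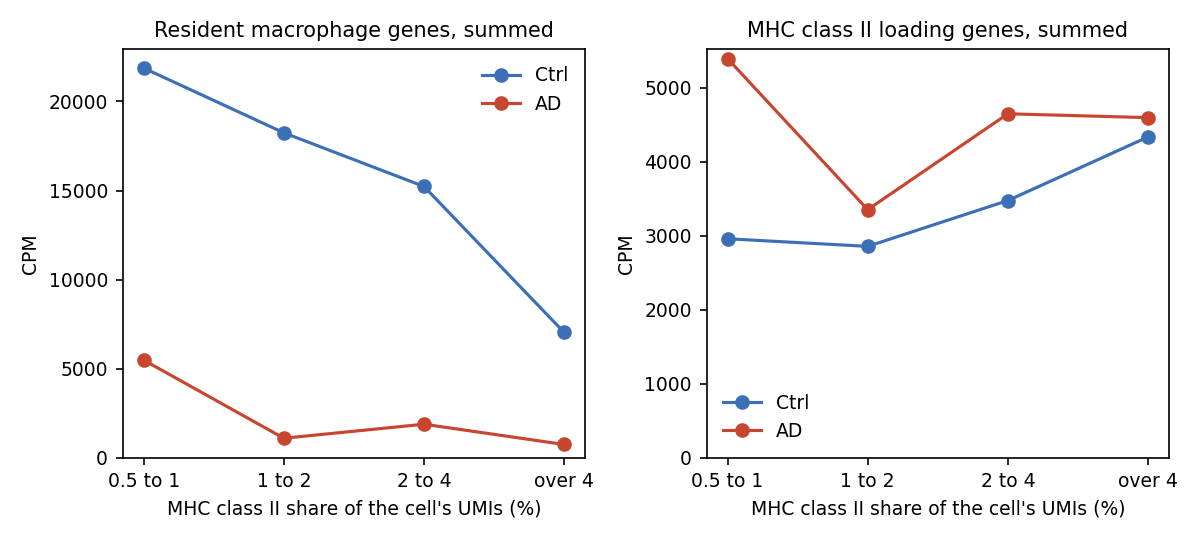
Summed CPM of the 17 resident macrophage genes (left) and of the MHC class II loading genes (right) in MHC-high cells grouped by the MHC class II share of their UMIs, in Ctrl (blue; 35, 61, 92 and 31 cells) and AD (red; 8, 9, 15 and 8 cells). The resident genes in AD lie between 749 and 5485 CPM, under every Ctrl value.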

How the data were processed

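Single-cell libraries (10x 3′ chemistry) of dorsal skin were prepared from 1 Ctrl and 1 AD sample. The authors deposited raw UMI counts per gene and barcode, made with Cell Ranger on mm10. The file headers name version 5.0.0, the submitters' processing notes 3.1.0 and the paper's methods a different version from both. The study's own limits on cells had not been applied. Of 33904 gene identifiers, those of 36 repeated symbols were not ranked. UMIs were summed over the cells of each class and scaled to CPM, and ratios were taken as log2 of AD over Ctrl after adding 1 CPM. The limits on cells removed 10 Ctrl and 5 AD barcodes that met the rule. Intervals are exact Poisson for levels, Clopper-Pearson for shares and the exact binomial split of the UMIs for ratios, the last without the added CPM. UMIs of 1 library are not replicates, so intervals cover counting error only. Genes at 0 in a library are given against a floor of 3 UMIs. Ribosomal, mitochondrial and rule genes were not ranked. Shares were also computed after thinning to 1000 UMIs. The script was tested on simulated data.

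Named genes were those of 36 lists, the 15 highest and 15 lowest ratios at 50 CPM or more, and the 10 highest and 10 lowest of MHC-high over MHC-low cells. Some of these genes are not reported here. The members, lists and alternatives were chosen with earlier results of these data known. Scrublet scored doublets per library (scanpy 1.11.5). Its threshold called 395 cells (3.47%) in Ctrl and none of 8179 in AD, where it did not work, so the 5% of cells with the highest score were left out as an alternative, 7 MHC-high cells of Ctrl and 3 of AD among them. No doublets were removed in the main values. Python 3.11.15, numpy 2.4.6, scipy 1.17.1, pandas 2.3.3 and matplotlib 3.10.9 were used, and edgeR 4.0.16 (R 4.3.3) for TMM factors only. Promoters came from RefSeq (GRCm38.p6).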

Additional observations from a re-analysis of the deposited data

Results flagged for a closer look

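Of the genes of the lists and rankings, 6 had a ratio of AD over Ctrl past 2-fold in opposite directions in MHC-high and MHC-low cells, both with counting intervals clear of 0 and with at least 50 CPM in Ctrl or AD in each class. Over all compared genes, 12 of those higher and 9 of those lower in MHC-high cells passed 2-fold in the opposite direction in MHC-low cells. With 1 library per condition the difference between the classes was not tested. The log2 ratio of Ccl2 was -1.04 in MHC-high and 1.497 in MHC-low cells, that of Ccl3 was -1.23 and 2.92, and that of Ccl4 was -1.83 and 1.77. Cxcl1 had -1.97 and 2.76. Cd93, a lectin-like surface receptor, had -2.22 and 1.69, with 111 and 23.1 CPM in MHC-high cells and 30.8 and 102 CPM in MHC-low cells. Timd4 went the other way, with 2.11 and -2.32, and its AD UMIs in MHC-high cells all lay in cells with dendritic or Langerhans cell UMIs.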

How the results depend on the processing

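Over 15 alternatives, the 294 genes with a value gave 4410 ratios, of which 3875 stayed within the counting interval of the main value, 521 did not, and 14 whose main value was past 2-fold changed sign. The counts of cells and of genes past 2-fold stayed within 1.5 times the main values except as follows. With the rule on cells thinned to 1000 UMIs, 17 AD cells were left (log2 ratio of the share -2.61), and without cells with Cd207, Epcam, Flt3, Xcr1 or Ccr7 UMIs 20 (-2.93). Scaling to the total without rule, ribosomal and mitochondrial genes gave 547 genes higher and 529 lower of 4288 compared in place of 3542, with a median over all genes of 0.06 in place of -0.10. With no limit on CPM 1848 genes were higher and 4638 lower, and with 200 CPM 107 and 157. Each gene without its top cell gave 262 and 631, an alternative chosen after seeing the data, as was the doublet score. Leaving out the top cell takes a larger part of the AD cells than of the Ctrl cells and so lowers the ratios (median -0.25). Sign changes were those of Ccl12 (-1.15 with MHC class II at least 1%, -0.62 with the thinned rule, -0.70 without its top cell), Fn1 (-0.48), Ereg (-2.82), Dcn (0.071) and Ccl17 (-1.70) with the thinned rule, Cxcl9 (2.68), Cdh1 (-3.91), Timd4 (-4.35) and Ly6c1 (-0.37) without the dendritic and Langerhans cell genes, Ly6c1 also by doublet score (-0.37) and without its top cell (-0.34), and Ereg without its top cell (-2.34). The cause was not tested. Leaving out cells called doublets was not run, as none were called in AD. No paired analysis was possible because the groups hold 1 library each. The 40 AD cells and their 476621 UMIs set the depth limit: a gene without a UMI there could still be at 6.29 CPM.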
